A study of Mus musculus with 36 samples.

Results

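The genes described here are 10 cytoskeletal targets of the transcription factor SRF and of the co-activator YAP: Acta2, Actb, Actg1, Vcl, Tagln, Cnn1, Tpm1, Myl9, Ankrd1 and Ajuba. All probe sets annotated to 1 of these symbols were taken, which gave 21 of the 45101 probe sets on the array. Of these, 19 probe sets of 9 genes passed the filter on low values (log2 over 4 in at least 3 arrays), as did 21882 probe sets in all. The study followed RNA synthesis in the mouse fibroblast line NIH-3T3. New transcripts took up 4-thiouridine (4sU), an analogue of uridine, which allowed them to be separated from older RNA and hybridised to 36 Affymetrix arrays. The medium was changed at time 0 to fresh prewarmed medium with mock, with IFN alpha at 100 U/ml or with IFN gamma at 100 U/ml. RNA was labelled at 0-30, 30-60 or 150-180 min after the change with 500 µM 4sU, or at 0-60 min with 200 µM. Each of the 12 groups had 3 arrays. All groups received the fresh medium, so no group shows the cells without a medium change. The labels do not say that the arrays of a group came from separate cultures, so the p-values cover the spread of these arrays, which may be technical, and their number limits the precision.

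SRF binds a DNA element called the CArG box and is switched on along 2 routes. As actin is drawn into filaments, the MRTF cofactors are freed from monomeric actin and turn on genes for actins, their partners and focal adhesions, while MAP kinase signalling acts through the TCF cofactors on immediate-early genes such as Fos and Egr1. YAP and its relative TAZ work through the TEAD DNA-binding proteins when the Hippo kinases do not hold them in the cytoplasm, and they share many targets with the MRTF route. Serum and cell tension are known activators of both in fibroblasts.

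Reference promoter windows, from 250 bases before to 50 bases after the gene start, were found in RefSeq (GRCm38.p6) for 8 of the 10 genes, all but Actb and Tagln. A CArG box (CC, then 6 bases that are each A or T, then GG, which reads the same way on both strands) was present in 3 of the 8 windows, against 1.63% of 32851 windows of this length. The 6-letter TEAD site (CATTCC, or GGAATG on the other strand) was in 5 of the 8, against 14.7%. The motifs do not overlap each other in these windows, and a match is a description of the letters, not of binding. Only exact matches were searched, so a site with a differing letter was not counted for any gene. Cnn1 had an exact match to neither motif. The stretches below show where the motifs lie in the member promoters, 5′ to 3′ on the gene's strand, with the motif in capitals. Whether the motifs bear on the levels below was not tested. The Vcl stretch holds both motifs. It lies on the plus strand at chr14:20929156-20929275, from base -242 to base -123 before the gene start.
Vcl: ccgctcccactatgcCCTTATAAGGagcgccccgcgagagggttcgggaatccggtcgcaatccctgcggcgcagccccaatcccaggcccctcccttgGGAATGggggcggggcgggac
The other CArG boxes are in Actg1 (minus strand, chr11:120348561-120348600) and Myl9 (plus strand, chr2:156775288-156775327).
Actg1: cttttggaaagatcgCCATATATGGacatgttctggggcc
Myl9: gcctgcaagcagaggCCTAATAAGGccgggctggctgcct
TEAD sites without a CArG box are in Ankrd1 (minus strand, chr19:36119947-36120069) and Ajuba (minus strand, chr14:54577805-54577862), with a pair in each. Acta2 (minus strand, chr19:34255499-34255534) and Tpm1 (minus strand, chr9:67049249-67049284) have 1 each.
Ankrd1: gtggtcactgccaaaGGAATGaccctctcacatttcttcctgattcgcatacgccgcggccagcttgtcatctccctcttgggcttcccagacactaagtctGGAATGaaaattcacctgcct
Ajuba: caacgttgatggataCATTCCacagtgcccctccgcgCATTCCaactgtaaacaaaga
Acta2: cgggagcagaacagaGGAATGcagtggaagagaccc
Tpm1: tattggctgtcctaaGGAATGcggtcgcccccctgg

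The 30-60 min window stood apart over all probe sets. In mock, its median log2 difference from 0-30 min was -0.26, or -0.16 after quantile normalization, and 150-180 min lay 0.26 above it, while 150-180 and 0-30 min differed by 0.01. The bioC control, a transcript spiked into the hybridisation, averaged 7.14 at 0-30 min, 9.0 at 30-60 min and 6.80 at 150-180 min. At 30-60 min it was 10.26 to 10.38 in the arrays numbered 1, 9.23 to 9.43 in those numbered 2 and 7.17 to 7.65 in those numbered 3. Comparisons with this window were therefore also fitted without its arrays 1 and 2, which leaves 1 array per group there, whose spread is assumed to be that of the other groups. The arrays kept, numbered 3, had medians over the tested probe sets of 6.21 to 6.25, against 6.41 to 6.43 at 0-30 min. That fit thus cannot tell a change of a gene from a shift shared by the window. The values of that fit stand beside many of the results that differ in it. They are not given for the counts with interferon, for the TCF list, or for the Myh10 probe set called with interferon. The array mock 0-60 min number 1 stood apart, with r of 0.905 and 0.904 to the rest of its group, where the remaining pair had 0.985. Its 3′ minus 5′ Gapdh control difference was 2.67, against -0.42 to 0.25 in the other arrays of that window. The arrays numbered 1 with IFN alpha and IFN gamma at 0-60 min also had lower r to their groups. These were 0.9505 to 0.9618, where the remaining pairs had 0.9830 and 0.9839. All 7 fibroblast markers were above the filter (Vim averaged 13.15), as were 1 of 7 smooth muscle markers (Smtn, at 4.30), 1 of 7 striated muscle markers (Acta1, at 3.17) and 1 of 5 macrophage markers (Cd14, at 6.17). The defining smooth muscle genes Myh11, Myocd and Des were under the filter, and 0 of 4 epithelial and 0 of 4 endothelial markers passed it. In bulk RNA such as this, fewer cells making a transcript and less of it made per cell cannot be told apart.

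Values below are log2 units as deposited. Differences are log2 differences with the standard error (SE) of a limma fit over all 36 arrays, n = 3 arrays per group. A difference is called, and written as a rise or fall, where its p, adjusted by Benjamini-Hochberg over the 21882 probe sets, is under 0.05. A level is compared only within 1 probe set.

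After the change to fresh medium with mock, Vcl made a sharp wave of transcription at 30-60 min that was over by 150-180 min. Acta2, Tagln, Ankrd1 and most Actb probe sets were highest in the first 30 min and fell from there. By 150-180 min, 11 of the 19 probe sets, from 7 of the 9 genes, were below their level at 0-30 min and 0 were above it. Vcl and Ajuba had no called probe set between these outer windows. Cnn1, which encodes the smooth muscle actin-binding protein calponin, was near background throughout.

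In mock at 30-60 against 0-30 min, 3 member probe sets rose and 7 fell, beside 20.7% of all probe sets called higher and 37.2% called lower. The median of the members was -0.39 and that of all probe sets -0.26, so the share that moved is close to the background and says little about the members as a group. From 30-60 to 150-180 min 1 rose and 7 fell, against 39.2% of all called higher and 24% called lower, with a median of -0.38 for the members and 0.26 for all. Between 0-30 and 150-180 min, where the medians of all probe sets are level, 11 fell and 0 rose, against 5.86% of all probe sets called lower and 3.72% called higher. The median of the members was -0.53 there and that of all probe sets 0.01. At an unadjusted p under 0.05 the same comparison held 11 members. In the fit without arrays 1 and 2 of 30-60 min, 3 members rose and 4 fell over the first step, beside 16.1% and 28.4% of all probe sets, and 0 rose and 7 fell over the second, beside 30.6% and 19.2%. Several of the 11 are probe sets of 1 gene (4 of Actb and 2 of Acta2), so they are not 11 separate observations.

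Vcl encodes vinculin, which links integrins and cadherins to actin filaments. On probe set 1416156_at the mock arrays read 10.80, 10.74 and 10.73 at 0-30 min, 13.08, 13.38 and 13.21 at 30-60 min, and 10.74, 10.83 and 10.66 at 150-180 min. The 30-60 min arrays are all far above the others and the outer windows overlap. The rise was 2.47 ± 0.14 (SE), 5.53-fold (adjusted p = 6.28e-14), and the following fall was by 2.48 ± 0.14 (adjusted p = 3.61e-14). The outer windows differed by -0.01 ± 0.14. Over the 3 treatments, all 9 arrays of 30-60 min lay between 12.94 and 13.38, and the 18 arrays of the outer windows at or below 10.83. The 3 arrays numbered 3, whose bioC lay near that of 0-30 min, gave 13.21 to 13.27, and without arrays 1 and 2 the mock rise was 2.45 ± 0.20 (adjusted p = 5.2e-09). The 0-60 min arrays, labelled longer and with less 4sU, read 11.28 to 12.05, between the 0-30 and 30-60 min levels. That order did not hold for every member. On Tpm1 1456623_at they read 8.52 to 10.05 over the 3 treatments, below 0-30 min (10.10 to 10.74) and 30-60 min (10.26 to 11.05). On Acta2 1456658_at they read 3.45 to 5.85, below 0-30 min (6.46 to 7.95).

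The second Vcl probe set, 1416157_at, moved the same way from a much lower signal. Its mock arrays read 5.77, 5.31 and 5.70, then 9.54, 6.85 and 9.15, then 6.12, 6.29 and 6.30. The windows do not overlap, but at 30-60 min the arrays numbered 2 read 6.11 to 6.97 over the 3 treatments and the others 8.71 to 9.54. The rise of 2.92 ± 0.84 (adjusted p = 0.00373) and the fall by 2.28 ± 0.84 (adjusted p = 0.019) have wide errors. The fall was not called without mock 30-60 min array 1 or without array 3, where it reached 1.76 at its smallest. Without arrays 1 and 2 the rise was 3.55 ± 1.01 (adjusted p = 0.0063).

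**Figure D1:**
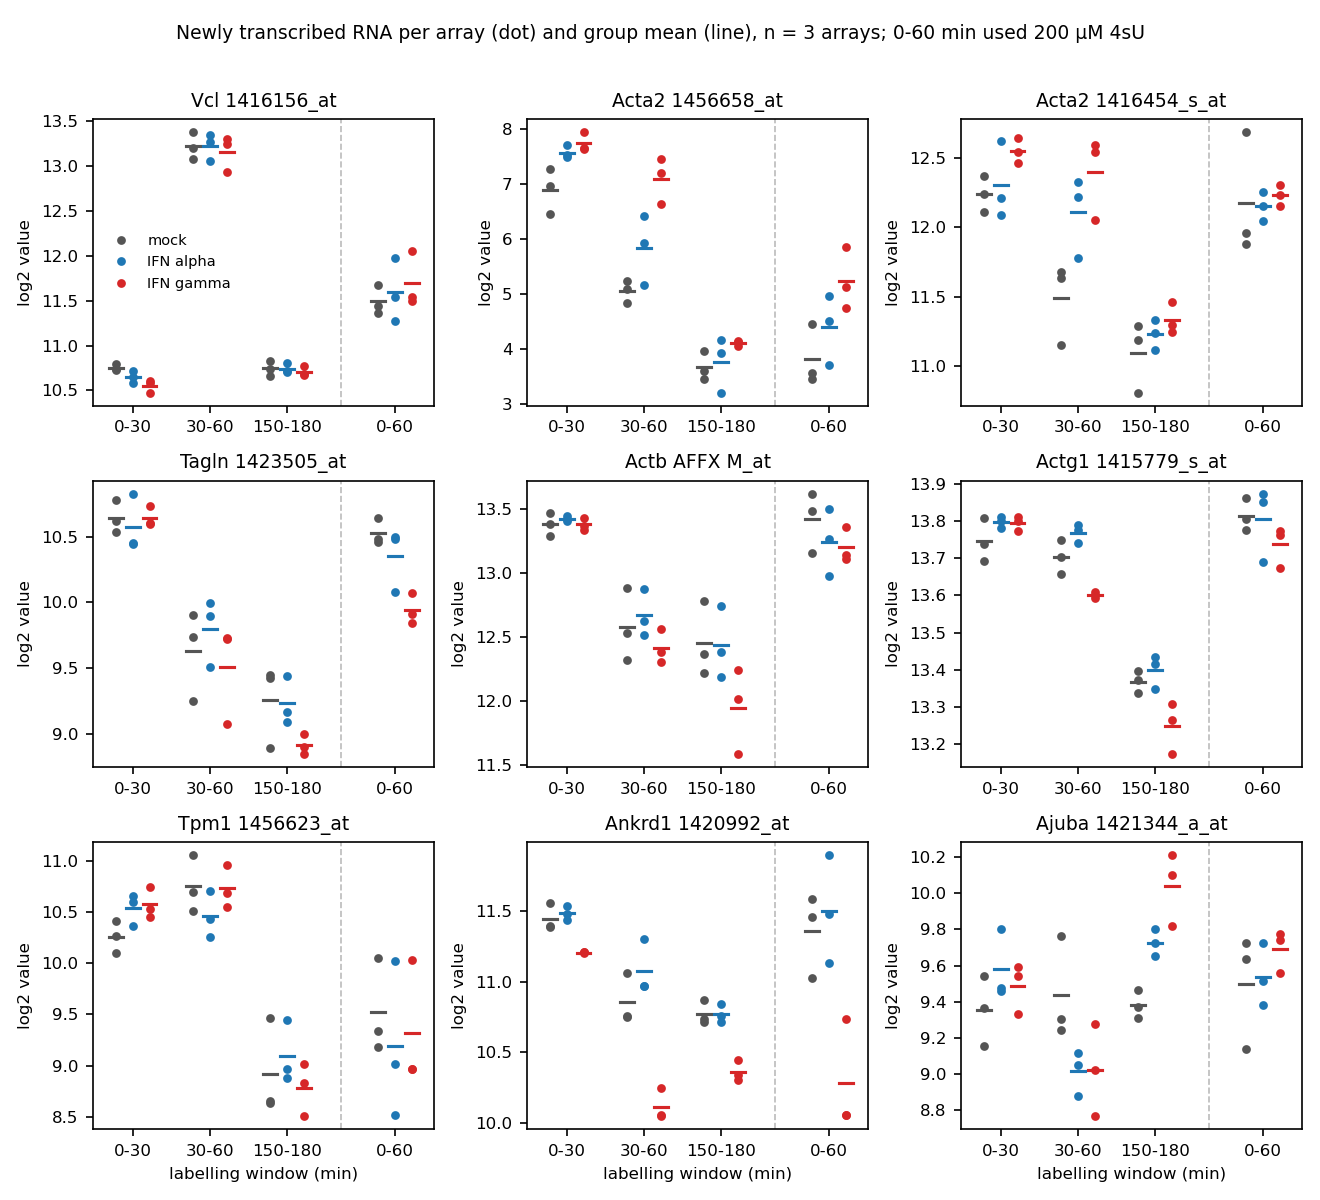
Log2 level of newly transcribed RNA on each array (dot) with group means (line), for 9 member probe sets by labelling window in minutes; mock is grey, IFN alpha blue and IFN gamma red, n = 3 arrays a group, and the 0-60 min groups right of the dashed line had 200 µM 4sU. Vcl 1416156_at peaks at 30-60 min at 12.94 to 13.38 in every treatment, while Acta2 1456658_at falls to 4.17 or less by 150-180 min.

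The actin genes fell. Acta2 encodes smooth muscle alpha actin, which fibroblasts put into stress fibres. On 1456658_at the mock arrays read 6.46, 6.98 and 7.28 at 0-30 min, 5.24, 4.85 and 5.09 at 30-60 min, and 3.60, 3.97 and 3.45 at 150-180 min. Each window lies wholly below the one before it. The fall over the first step was by 1.85 ± 0.33 (adjusted p = 2.43e-05) and from 0-30 to 150-180 min by 3.23 ± 0.33, 9.38-fold (adjusted p = 9.21e-08), with all 3 mock arrays of the last window under the filter level of 4. That fold is thus against background rather than a measured level. The brighter 1416454_s_at, which by its suffix can match transcripts of several genes and so may share signal with other actins, read 12.37, 12.11 and 12.24, then 11.16, 11.63 and 11.67, then 11.19, 11.29 and 10.81. It fell by 1.14 ± 0.18 between the outer windows (adjusted p = 0.000106). Its fall to 30-60 min, by 0.75 ± 0.18 (adjusted p = 0.000847), was not called without arrays 1 and 2 (adjusted p = 0.055). The other Acta2 probe set, 1444105_at, passed 4 in 3 arrays of 36 and was not called in mock.

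Actb and Actg1 encode the 2 cytoplasmic actins of non-muscle cells, and their probe sets lie near the top of the signal range (the highest value of any array was 14.82). Actb 1436722_a_at read 13.65, 13.65 and 13.74 at 0-30 min, 13.40, 13.42 and 13.55 at 30-60 min, and 13.02, 13.03 and 13.41 at 150-180 min. The first 2 windows do not overlap, yet their difference of -0.22 ± 0.11 was not called and is close to the shift of all probe sets. From 0-30 to 150-180 min it fell by 0.53 ± 0.11 (adjusted p = 0.00254). The array's own Actb controls, which sample the 3′ end, middle and 5′ end of the transcript, fell by 0.57 ± 0.09, 0.93 ± 0.17 and 0.88 ± 0.25 over the same span. On the middle control the mock arrays read 13.29, 13.38 and 13.47, then 12.53, 12.32 and 12.88, then 12.36, 12.22 and 12.78, with the first window above both later ones, which overlap. The 5′ call (adjusted p = 0.0252) was lost without 5 of the 6 arrays in turn. At 30-60 min the 3 controls had already fallen, by 0.46 ± 0.09, 0.80 ± 0.17 and 0.88 ± 0.25. Of these, the middle and 5′ calls were lost without arrays 1 and 2 (adjusted p of 0.095 and 0.25), and the 5′ call also without array 2 alone. The 3′ minus 5′ difference of Actb, a measure of how evenly the transcript was read, moved with the windows, with medians of 1.07 at 0-30, 1.40 at 30-60 and 1.45 at 150-180 min. Single arrays reached 1.34, 2.08 and 2.16 in these windows. The high values at 30-60 min were those of the arrays numbered 2, at 1.98 to 2.08. The part of this measure in the Actb result was not tested.

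Actb 1419734_at went against the other Actb probe sets. Its mock arrays read 7.66, 7.79 and 8.06, then 9.30, 9.02 and 10.55, then 7.93, 8.41 and 9.32. It rose by 1.79 ± 0.52 to 30-60 min (adjusted p = 0.00439), or by 2.71 ± 0.77 without arrays 1 and 2 (adjusted p = 0.0064), and its outer windows overlap. So no single direction describes Actb at 30-60 min. Actg1 1415779_s_at, another probe set that can match several genes, read 13.74, 13.69 and 13.81, then 13.75, 13.66 and 13.70, then 13.40, 13.37 and 13.34. The first 2 windows overlap and the last lies below both, a fall by 0.38 ± 0.06 from 0-30 min (adjusted p = 0.000132).

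Among the actin-binding and contractile genes, Tagln, which encodes the actin cross-linker transgelin, read 10.78, 10.53 and 10.62 at 0-30 min, 9.25, 9.91 and 9.74 at 30-60 min, and 9.42, 9.45 and 8.89 at 150-180 min. The later windows overlap each other and lie below the first. The fall was by 1.01 ± 0.18 at 30-60 min (adjusted p = 2.21e-05) and by 1.39 ± 0.18 at 150-180 min, 2.63-fold (adjusted p = 4.26e-06). Myl9, the regulatory light chain of myosin II, ran low, at 5.49, 5.01 and 5.25, then 4.58, 4.50 and 4.29, then 4.16, 4.39 and 3.65. Its fall by 1.19 ± 0.37 between the outer windows (adjusted p = 0.0354) was lost on leaving out any 1 of the 6 arrays. Cnn1 1417917_at had group means of 2.42 to 2.76 in all 12 groups and was not tested.

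Tpm1 encodes a tropomyosin, the coiled coil that lies along actin filaments, and its probe sets disagreed. On 1456623_at the mock arrays read 10.10, 10.26 and 10.41 at 0-30 min, 10.51, 11.05 and 10.69 at 30-60 min, and 8.63, 8.66 and 9.47 at 150-180 min. The last window lies below both earlier ones. Its difference at 30-60 min was 0.49 ± 0.29 (not called), and it then fell by 1.83 ± 0.29 (adjusted p = 4.15e-06), to 1.34 ± 0.29 below 0-30 min (adjusted p = 0.00324). Probe set 1423721_at fell by 0.49 ± 0.18 over the second step (adjusted p = 0.0201). That call was lost without mock 30-60 min array 2, without 150-180 min array 2, or without arrays 1 and 2, where the difference was -0.47 ± 0.27 (adjusted p = 0.15). In contrast 1423049_a_at rose by 1.01 ± 0.43 over the same step (adjusted p = 0.0408), a call lost on leaving out any 1 of the 6 arrays, or arrays 1 and 2 of 30-60 min together (0.81 ± 0.66, adjusted p = 0.32). The fourth, 1447713_at, had group means of 2.21 to 2.29 and was not tested.

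Ankrd1, an ankyrin-repeat protein of muscle and nucleus and a much used readout of YAP, read 11.39, 11.38 and 11.55 on 1420992_at at 0-30 min, 11.06, 10.75 and 10.76 at 30-60 min, and 10.71, 10.87 and 10.73 at 150-180 min. The later windows overlap each other and lie below the first. The fall was by 0.58 ± 0.16 (adjusted p = 0.00286) and by 0.67 ± 0.16 (adjusted p = 0.00732). On its second probe set, 1420991_at, the differences of -0.61 ± 0.37 and -0.38 ± 0.37 were not called. Ajuba encodes a LIM protein of cell junctions that binds the Hippo kinases LATS. Its mock arrays read 9.54, 9.16 and 9.36, then 9.30, 9.76 and 9.24, then 9.31, 9.37 and 9.47. All 3 windows overlap, and no mock difference was called (0.03 ± 0.16 between the outer windows).

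The interferon arrays, which are other arrays than those of mock, covered the same windows. Same-numbered arrays of a window deviated together across treatments, with r of 0.32 to 0.71 at 30-60 min. A shift shared by the arrays of a window would recur in all 3 treatments, so this is not an independent repeat. With IFN alpha 11, 10 and 10 of the 19 probe sets were called at 30-60 against 0-30, 150-180 against 30-60 and 150-180 against 0-30 min, beside 56.3%, 59% and 9.03% of all probe sets. With IFN gamma the counts were 12, 14 and 12, beside 58.9%, 60.1% and 10.9%. Leaving out arrays 1 and 2 of 30-60 min, the first-step difference of Vcl 1416156_at was 2.62 with IFN alpha and 2.69 with IFN gamma. That of Tagln was -0.68 and -0.91. Between the outer windows 10 probe sets fell in all 3 treatments, those of mock except Myl9. Vcl 1416156_at rose by 2.58 ± 0.14 with IFN alpha and 2.61 ± 0.14 with IFN gamma at 30-60 min. Acta2 1456658_at fell by 3.81 ± 0.33 and 3.63 ± 0.33 from 0-30 to 150-180 min, although its first step with IFN gamma, -0.65 ± 0.33, was not called. Actg1 fell by 0.40 ± 0.06 and 0.55 ± 0.06, and the middle Actb control by 0.99 ± 0.17 and 1.44 ± 0.17. Tagln fell by 1.35 ± 0.18 and 1.73 ± 0.18 over the same span. With IFN gamma at 150-180 min, array 3 had an Actb 3′ minus 5′ difference of 2.16, where arrays 1 and 2 had 1.43 and 1.48. The part of that array in the Actb fall was not tested.

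**Figure D2:**
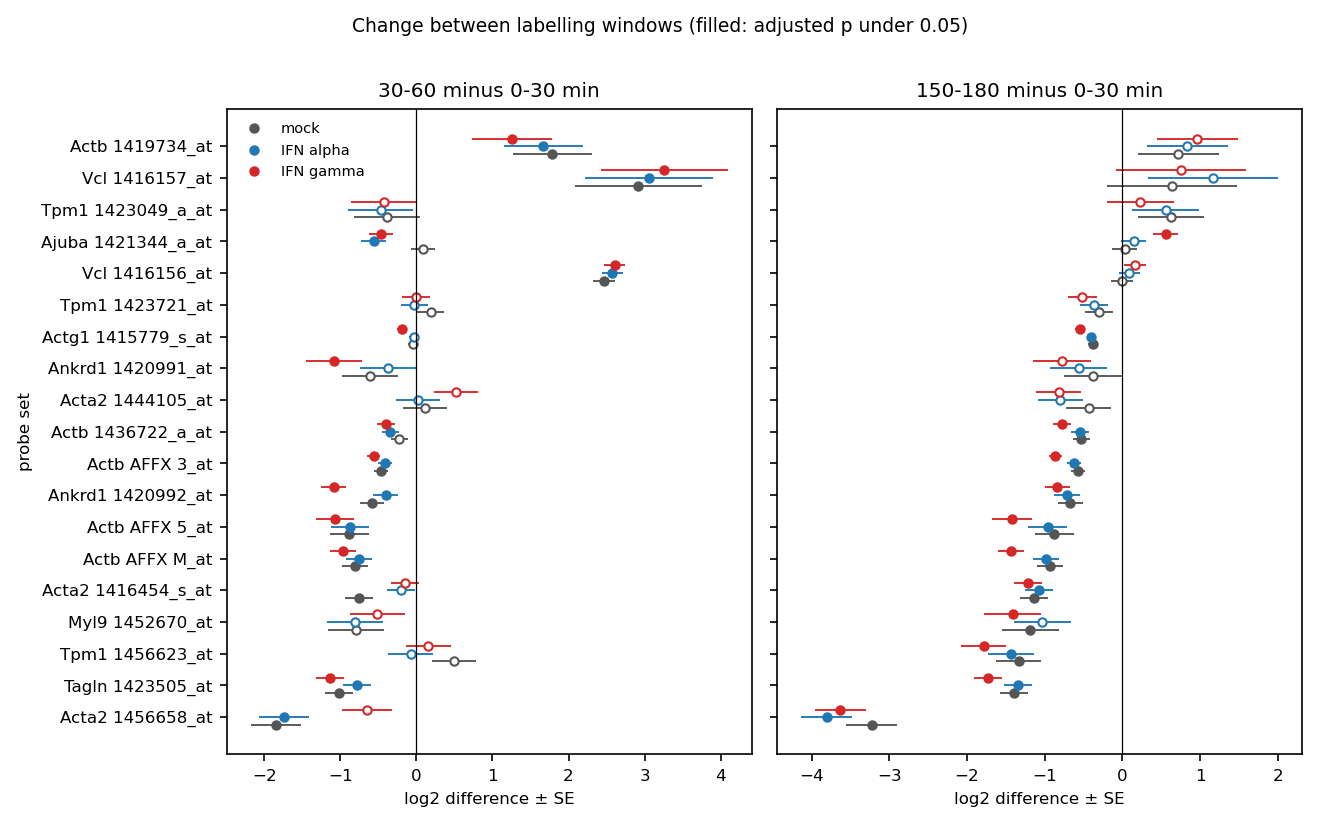
Log2 difference ± SE between labelling windows for the 19 tested member probe sets, in mock (grey), IFN alpha (blue) and IFN gamma (red), with filled points called at an adjusted p under 0.05. At 30-60 min both Vcl probe sets lie over 2.4 above 0-30 min in each treatment, and in the right panel the called points lie below 0 except Ajuba with IFN gamma at 0.55.

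The next comparison asks whether an interferon changed these genes at a given time after the same medium change. Both interferons share the mock arrays as control, so these differences are not independent of each other. No member probe set was called with IFN alpha against mock in any window by limma. At an unadjusted p under 0.05 there were 0 at 0-30, 3 at 30-60, 1 at 150-180 and 1 at 0-60 min. All probe sets were called higher at 0.338%, 1.84%, 2.29% and 1.38% in these 4 windows, and lower at 0%, 0.155%, 0.0914% and 0.032%. With IFN gamma 6 differences were called: 0 at 0-30 min (1 at an unadjusted p under 0.05), 2 higher and 1 lower at 30-60 min, 1 higher at 150-180 min, and 1 higher and 1 lower at 0-60 min. The background was 0.539%, 2.98%, 3.82% and 2.86% called higher and 0.0274%, 1.37%, 0.882% and 1.44% called lower.

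Acta2 was higher with IFN gamma at 30-60 min. On 1456658_at the IFN gamma arrays read 7.46, 6.64 and 7.21, the IFN alpha arrays 6.42, 5.18 and 5.92, and the mock arrays 5.24, 4.85 and 5.09. IFN gamma lies wholly above both other groups, and the IFN alpha arrays span the gap with 1 array inside the mock range. The difference from mock was 2.04 ± 0.33, 4.12-fold (adjusted p = 6.47e-05), and from IFN alpha it was 1.26 ± 0.33 (adjusted p = 0.0203). The latter call was lost without IFN alpha array 2 or 3 or IFN gamma array 1 or 3, and without arrays 1 and 2 IFN alpha minus IFN gamma was -1.28 ± 0.56 (adjusted p = 0.66). On 1416454_s_at IFN gamma arrays read 12.05, 12.59 and 12.54 against 11.16, 11.63 and 11.67 in mock, a difference of 0.91 ± 0.18 (adjusted p = 0.00131). Without arrays 1 and 2 the differences were 2.12 ± 0.56 and 0.86 ± 0.29, with adjusted p of 0.05 and 0.21, so neither was called on 1 array per group.

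Over 0-60 min, Acta2 1456658_at read 4.75, 5.85 and 5.13 with IFN gamma and 3.45, 3.56 and 4.46 in mock, apart by 1.42 ± 0.33 (adjusted p = 0.00813). The mock mean of 3.83 lies under the filter level of 4, so this difference, too, is against background. This call was lost without mock array 1 (the array that stands apart) and without IFN gamma array 2, and with only the arrays of that window in the fit. At 0-30 min the same probe set was 0.84 ± 0.33 higher and at 150-180 min 0.44 ± 0.33 higher, neither called. All 3 IFN gamma arrays were above all mock arrays in each of these windows too. Between IFN gamma and mock, 8 of the 19 members did not overlap at 0-30 min, where 0 were called, and 8 at 150-180 min, where 1 was. The share of all probe sets without overlap is not given, so this separation says little about Acta2. At 150-180 min the probe set read 3.21 to 4.17 over the 3 treatments, near the filter level of 4.

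Ankrd1 was lower with IFN gamma. On 1420992_at the 30-60 min arrays read 10.25, 10.05 and 10.06 with IFN gamma, 11.30, 10.97 and 10.97 with IFN alpha, and 11.06, 10.75 and 10.76 in mock. The IFN gamma arrays lie below both other groups, which overlap. The difference from mock was -0.74 ± 0.16 (adjusted p = 0.00353), and IFN alpha exceeded IFN gamma by 0.96 ± 0.16 (adjusted p = 0.00013). Without arrays 1 and 2 these were -0.70 ± 0.29 and 0.91 ± 0.29, with adjusted p of 0.5 and 0.2. In the 0-60 min groups it read 10.06, 10.06 and 10.74 with IFN gamma against 11.03, 11.46 and 11.58 in mock, with no overlap. The difference was -1.07 ± 0.16, 2.10-fold lower (adjusted p = 3.41e-05), called on leaving out each of the 6 arrays but not with only the arrays of that window in the fit. At 150-180 min the difference was -0.41 ± 0.16 and not called. IFN alpha exceeded IFN gamma at 0-60 min by 1.22 ± 0.16 on this probe set (adjusted p = 7.13e-06, likewise lost with only that window's arrays) and by 1.32 ± 0.37 on 1420991_at (adjusted p = 0.0482, lost without 4 of the 6 arrays in turn).

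Between the interferons 0, 2, 0 and 2 member probe sets were thus called at 0-30, 30-60, 150-180 and 0-60 min by limma, with 0, 4, 6 and 4 at an unadjusted p under 0.05. The background was 0.507%, 4.16%, 3.33% and 2.65% of all probe sets. Vcl was not among them. On 1416156_at IFN alpha differed from mock at 30-60 min by 0.01 ± 0.14 and IFN gamma by -0.06 ± 0.14.

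Ajuba was higher with IFN gamma at 150-180 min, where its arrays read 9.82, 10.10 and 10.21 against 9.31, 9.37 and 9.47 in mock and 9.65, 9.73 and 9.80 with IFN alpha. IFN gamma lies wholly above both. The difference from mock was 0.66 ± 0.16 (adjusted p = 0.0093), a call lost without mock array 1 or without IFN gamma array 2 or 3. At 30-60 min its IFN gamma arrays read 8.77, 9.27 and 9.02 and its mock arrays 9.30, 9.76 and 9.24, a difference of -0.42 ± 0.16 that was not called. From 30-60 to 150-180 min Ajuba rose by 1.02 ± 0.16 with IFN gamma and by 0.71 ± 0.16 with IFN alpha, and differed by -0.05 ± 0.16 in mock. It had first fallen from 0-30 to 30-60 min, by 0.56 ± 0.16 with IFN alpha and by 0.47 ± 0.16 with IFN gamma, calls that were lost without arrays 1 and 2, where the differences were -0.53 ± 0.21 and -0.47 ± 0.21 (adjusted p of 0.05 and 0.083). The test of the difference in these changes gave 1.08 ± 0.23 for IFN gamma over mock (adjusted p = 0.00643). For IFN alpha over mock it was 0.77 ± 0.23 (adjusted p = 0.291). Without arrays 1 and 2 of 30-60 min the first became 0.88 ± 0.30 (adjusted p = 0.36). It was the only member called among the 4 tests of a difference in window changes, where 10 had an unadjusted p under 0.05. In these tests 0.827% (IFN alpha) and 1.07% (IFN gamma) of all probe sets were called for the step to 30-60 min, and 0.402% and 1.38% for the step to 150-180 min.

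**Figure D3:**
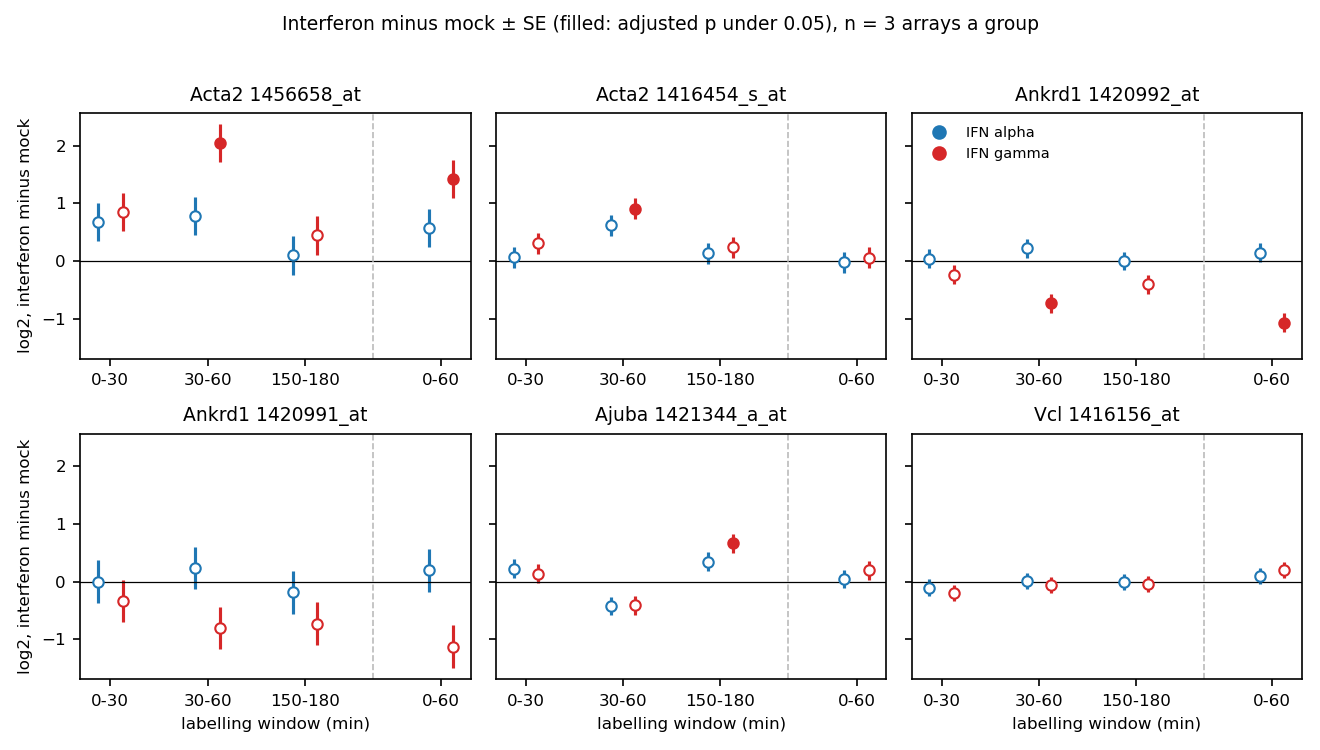
Interferon minus mock, as a log2 difference ± SE, by labelling window in minutes for 6 member probe sets, IFN alpha in blue and IFN gamma in red, filled where the adjusted p was under 0.05, with the 0-60 min groups right of the dashed line. The filled points are IFN gamma's: Acta2 at 2.04, 1.42 and 0.91, Ankrd1 at -0.74 and -1.07, and Ajuba at 0.66.

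Arrays with the same number deviated together from their group means within the 0-30, 30-60 and 0-60 min windows, so the interferon comparisons there were also fitted with the array number within its window as a block. The block kept each of the calls above at 30-60 and 0-60 min. It added Acta2 1444105_at (0.85 ± 0.21, adjusted p = 0.00757), Ankrd1 1420991_at (-0.81 ± 0.13, adjusted p = 0.000112) and Ajuba (-0.42 ± 0.11, adjusted p = 0.0105) for IFN gamma at 30-60 min, which made 3 higher and 3 lower beside 4.99% and 5.07% of all probe sets. At 0-60 min it added Vcl 1416157_at (1.29 ± 0.31), Tpm1 1423049_a_at (0.63 ± 0.16), Ankrd1 1420991_at (-1.13 ± 0.13) and Tagln (-0.59 ± 0.11), for 3 higher and 3 lower beside 8.89% and 8.72%. The mock group of these additions holds array 1, which stood apart. On Vcl 1416157_at the arrays numbered 1 read 3.42 to 5.29 over the 3 treatments, those numbered 2 6.39 to 7.27 and those numbered 3 6.38 to 7.52. For IFN alpha at 30-60 min the block called Acta2 1416454_s_at higher by 0.62 ± 0.13 (adjusted p = 0.00315) and Ajuba lower by 0.42 ± 0.11 (adjusted p = 0.0188), beside 2.93% and 1.49%. Between the interferons it called 4 members at 30-60 min and 4 at 0-60 min, beside 8.63% and 7.07%. For the change to 30-60 from 0-30 min it called Ajuba with IFN alpha (-0.65 ± 0.15) and Ajuba and Ankrd1 1420992_at with IFN gamma (-0.55 ± 0.15 and -0.50 ± 0.12), beside 1.7% and 2.71%.

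The rest of the pathway was read from 3 gene lists without the members. Of the list of contractile and adhesion genes on the MRTF route (85 probe sets of 36 genes), 20 probe sets rose and 19 fell at 30-60 against 0-30 min in mock, 8 rose and 35 fell from 30-60 to 150-180 min, and 1 rose and 20 fell between the outer windows. All probe sets were called higher at 20.7%, 39.2% and 3.72% and lower at 37.2%, 24% and 5.86% in these 3 comparisons. The list held 13 that rose and 11 that fell without arrays 1 and 2 of 30-60 min, beside 16.1% and 28.4% of all, and then 4 and 29, beside 30.6% and 19.2%. The list medians were 0.14, -0.33 and -0.21, beside -0.26, 0.26 and 0.01 for all probe sets. Pdlim5, a PDZ and LIM protein of actin filaments and Z-discs, made the wave of Vcl with a larger height, rising by 4.40 ± 0.18 (adjusted p = 7.89e-17) and then falling by 5.51 ± 0.18 (adjusted p = 1.35e-19). Itga5, the fibronectin receptor subunit, rose by 1.10 ± 0.24 and fell by 2.71 ± 0.24, and Lima1, an actin bundler, rose by 0.96 ± 0.16 and fell by 1.54 ± 0.16. Myh10, a non-muscle myosin heavy chain, went the other way, falling by 1.60 ± 0.11 and rising by 1.67 ± 0.11. Tln1 and Flna, which encode talin and filamin, fell by 1.09 ± 0.28 and 1.02 ± 0.21 at 30-60 min. Cfl2 and Mrtfb rose over the second step, by 0.87 ± 0.13 and 0.64 ± 0.15. Srf itself (1418255_s_at) fell by 1.69 ± 0.14 between the outer windows (adjusted p = 2.15e-09), a comparison for which it was picked after its values were seen.

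The immediate-early genes of the TCF route (15 probe sets of 9 genes) held 3 that rose and 1 that fell at 30-60 min, 0 that rose and 10 that fell over the second step, and 0 that rose and 10 that fell between the outer windows, from all 9 genes. The background is that of the contractile list, so the 3 rises at 30-60 min, beside 20.7% of all probe sets, say little about this list, while the falls stand beside 24% and 5.86%. Their medians were -0.01, -1.01 and -0.78. Egr3 and Nr4a1, both early-response transcription factors, rose by 0.95 ± 0.17 and 0.76 ± 0.13 at 30-60 min. Egr3, Junb and Egr2 then fell by 2.54 ± 0.17, 2.33 ± 0.33 and 1.82 ± 0.18.

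The YAP and TEAD targets (44 probe sets of 21 genes) went both ways. There were 8 that rose and 11 that fell at 30-60 min, 12 and 10 over the second step, and 6 and 4 between the outer windows, with medians of -0.04, 0.18 and -0.13. Beside 20.7% of all probe sets called higher and 37.2% lower at 30-60 min, and 39.2% and 24% over the second step, these counts say little about the list. Between the outer windows the shares of all were 3.72% and 5.86%. The first 2 pairs of counts were 5 and 9, and 9 and 10, without arrays 1 and 2 of 30-60 min. Nuak2, a kinase, and F3, which encodes tissue factor, rose by 1.27 ± 0.24 and 1.04 ± 0.17 and then fell by 1.55 ± 0.24 and 2.37 ± 0.17. Arhgef17 rose by 0.77 ± 0.27 at 30-60 min, a call lost without arrays 1 and 2 (0.81 ± 0.41, adjusted p = 0.112). Wwc1 and Myof fell by 1.47 ± 0.17 and 1.01 ± 0.19 at 30-60 min and rose again by 1.25 ± 0.17 and 0.84 ± 0.19. Gadd45a, a growth-arrest gene, fell by 1.22 ± 0.25 at 30-60 min, and over the second step Ptpn14 rose by 1.05 ± 0.18 and Ccn1, a secreted matrix protein much used as a readout of YAP, fell by 0.46 ± 0.11.

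**Figure D4:**
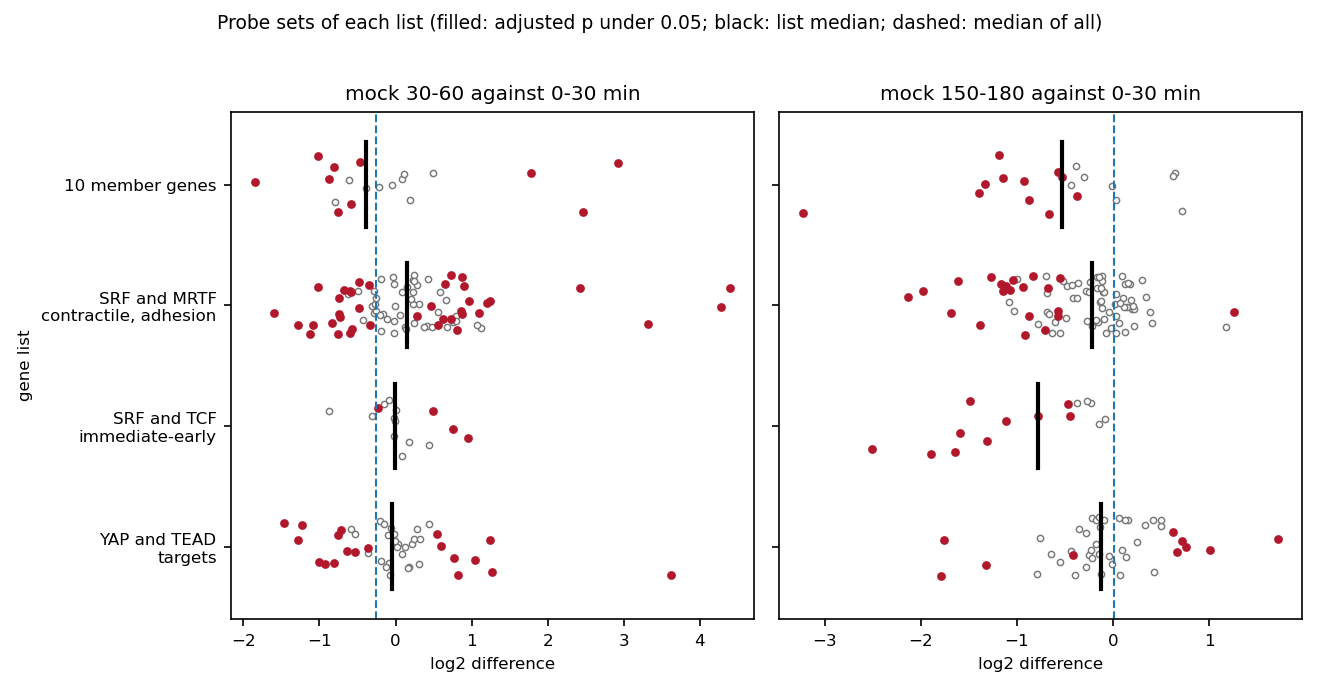
Log2 difference of every tested probe set (point) of the member genes and of the 3 lists, for mock 30-60 and 150-180 against 0-30 min, filled at an adjusted p under 0.05, with the list median as a black bar and the median of all 21882 probe sets as a dashed line. The members' median is -0.53 in the right panel and that of the immediate-early genes -0.78.

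With IFN gamma against mock at 150-180 min, 1 of the 85 probe sets of the MRTF list was called higher and 1 lower, 2 and 1 of the 15 of the TCF list, and 3 and 2 of the 44 of the YAP list, beside 3.82% and 0.882% of all probe sets. At 30-60 min it was 0 and 1, 1 and 0, and 1 and 1, beside 2.98% and 1.37%. At 0-60 min it was 3 and 2, 0 and 0 (4 at an unadjusted p under 0.05), and 1 and 0, beside 2.86% and 1.44%. At 0-30 min 0 were called in each list by limma, with 1 in each at an unadjusted p under 0.05. IFN alpha called 1 MRTF probe set lower at 30-60 min (a Myh10 probe set, by 0.86 ± 0.19), and 1 YAP probe set higher and 2 lower at 150-180 min, beside 2.29% and 0.0914% of all. In its other windows and lists 0 were called, with 0 to 7 at an unadjusted p under 0.05. F3 was higher with IFN gamma by 0.72 ± 0.17 at 30-60 min, 1.99 ± 0.17 at 150-180 min (adjusted p = 1.51e-10) and 0.94 ± 0.17 at 0-60 min, and with IFN alpha by 1.02 ± 0.17 at 150-180 min (adjusted p = 8.51e-05). With IFN gamma, Egr3 was 0.98 ± 0.17 lower and Egr2 0.62 ± 0.18 higher at 150-180 min, and Srf 0.58 ± 0.14 lower at 0-60 min (adjusted p = 0.0128). Egr3 and Egr2 are thus on opposite sides of mock at 150-180 min. Egr2 was also higher at 30-60 min, by 0.66 ± 0.18. Without arrays 1 and 2 the 30-60 min differences of F3, Egr2 and Foxf2 with IFN gamma were 0.59 ± 0.31, 0.67 ± 0.34 and -0.77 ± 0.32, and none of the 3 was called (adjusted p of 0.864, 0.812 and 0.482). The growth factor Tgfb2 and the actin cross-linker Actn1 were lower with IFN gamma at 150-180 min, by 0.86 ± 0.15 and 0.67 ± 0.17. Also with IFN gamma, Foxf2 was lower at 30-60 min by 0.67 ± 0.20 (adjusted p = 0.0495) and Fhl1 at 0-60 min by 0.93 ± 0.26. Tgfb2 and Fhl1 ran near the filter level of 4, with means of 4.30 and 4.48 with IFN gamma against 5.16 and 5.41 in mock. The mock group behind the 0-60 min differences of F3, Srf and Fhl1 holds array 1, which stood apart. With IFN alpha, Wwc1 was 0.66 ± 0.17 lower at 150-180 min.

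The level patterns of 4 members over the 12 group means were set against 6649 genes whose group means spanned at least 1 log2 unit. Points that share a window also share its labelling and scale, so r is a description. Nearest to Vcl 1416156_at were Atp13a3 (r = 0.99), Uty, Tes3-ps, Eps15l1 and 5730507C01Rik (0.98 each), of which the first went from 9.18 to 10.97 and back to 9.02 in mock. Nearest to Acta2 1416454_s_at were Sdc4 (0.93), Mt1, Zfp36, Atf3 and Arc (0.87). Nearest to Actb 1436722_a_at were Cnn2 (0.95), Fosb, Trio, Tagln2 and Dstn (0.93). For Ankrd1 1420992_at they were Gtf3c5 (0.89), Ccnd1, Apcdd1, Sertad4 and Cavin4 (0.86).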

How the data were processed

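The authors deposited a table of log2 values for 36 Affymetrix arrays, made with GCRMA per the submitters' processing notes; the version is not given in the sources used here. Symbols came from the platform annotation (34958 probe sets with 1 symbol, 932 with several, 9211 with none). Sets with several were not used by name, and 51 spike controls with no gene were left out. Group means were fitted in limma 3.58.1 (R 4.3.3) (lmFit, then eBayes with its trend on mean intensity) in 25 two-sided contrasts, with 24 residual and 5.4 prior degrees of freedom, after tests on simulated data. One spread per probe set is taken over all windows. The 0-60 min groups differ in dose and length and were not tested against other windows.

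The members, lists and contrasts were chosen with earlier results of these data known. Named beyond the members are, per list, the 3 called genes with the largest rise and fall in each of the first 2 mock window contrasts and the 2 with the largest change in each interferon contrast with mock, by a gene's brightest probe set. For likeness, the 5 highest r are named. A further gene list is not reported here.

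The array numbers of the labels were checked as pairs. Deviations of same-numbered arrays within a window correlated at over 0.1 in 9 of 9 pairs at 0-30, 0-60 and 30-60 min and in 7 of 9 at 150-180 min, and between windows in 10 of 27, so the block was used within the first 3.

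The alternatives dropped the filter or raised it to log2 6, took log2 after a constant of 16 was added, quantile-normalized the arrays or shifted them to 1 median, kept 1 probe set per gene, left out the trend, weighted the arrays, took the array number as a replicate block over all windows, fitted only the arrays of the windows compared, or left out each array. The block within windows and leaving out 30-60 min arrays 1 and 2 were chosen after seeing the data.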

Additional observations from a re-analysis of the deposited data

Results flagged for a closer look

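Ajuba, the LIM protein that binds the LATS kinases, stood out because its change from 30-60 to 150-180 min differed between IFN gamma and mock. The difference between the changes was 1.08 ± 0.23 on the log2 scale (limma, adjusted p = 0.00643, n = 3 arrays per group). All 3 IFN gamma arrays at 150-180 min lay above all mock arrays there, and the call held in 12 of 13 fits that left out arrays, with values from 0.88 to 1.20. The exception left out arrays 1 and 2 of the 30-60 min window (0.88 ± 0.30, adjusted p = 0.36).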

How the results depend on the processing

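Counts are of member probe sets called. Except where a share of all probe sets stands beside a count, it does not show whether the members moved more than all probe sets did. Between windows in mock, with 10, 8 and 11 called at 30-60 against 0-30, 150-180 against 30-60 and 150-180 against 0-30 min, 1 probe set per gene gave 5, 3 and 6, since fewer probe sets enter, and array weights gave 13 for the second. Leaving out 1 array gave 9 to 10, 5 to 8 and 9 to 10; the 5 came without mock 30-60 min array 3. IFN alpha gave 31 over its 3 window contrasts and 15 with 1 probe set per gene (27 to 31 without 1 array), and IFN gamma 38 and 21 (32 to 37). IFN alpha against mock gave 0, but 5 with array weights, 2 with the replicate block within windows and 0 to 1 without 1 array. IFN gamma against mock gave 6, with 13 under array weights, 20 under the block and 5 to 7 without 1 array. The block raised the share of all probe sets called as well. At 30-60 min it went from 2.98% to 4.99% called higher and from 1.37% to 5.07% called lower. Of the 20, 8 were at 150-180 min, 1 higher and 7 lower, beside 7.38% and 4.33% of all probe sets. Pairing by number was less even in that window, with 7 of 9 pairs correlated at over 0.1. IFN alpha against IFN gamma gave 4, with 2 from 1 probe set per gene, 12 from array weights, 2 from only the arrays of the windows compared, 10 from the block, 2 without 30-60 min arrays 1 and 2, and 3 to 4 without 1 array. The differences of window changes gave 1, with 2 after adding 16, 12 from array weights, 7 from the block and 0 without 30-60 min arrays 1 and 2. The weights had not converged when fitting stopped; apart from the contrasts with fewer probe sets or arrays, the cause was not tested. No result changed sign past the threshold. The replicate block over all windows left these counts within 1.5 times. Signal over background limits Acta2 1444105_at, Myl9, Cnn1 and Acta2 1456658_at at 150-180 min and in mock at 0-60 min. Among the list genes it also limits Tgfb2 and Fhl1.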
